A study of Mus musculus with 7 samples.

Results

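Messenger RNA of 35 glycolysis and hypoxia response genes was measured in single cells of 7 mouse tumors. The genes were chosen by symbol, and 35 of 35 were found among the 33696 genes of the feature lists. The tumors were grown from JW23.3, 1 line established from a male mouse MPNST (malignant peripheral nerve sheath tumor) that carries mutations of Nf1 and Trp53, so every tumor shared these lesions and 1 cell origin. The cells had been placed under the flank skin of female wildtype C57/B6 mice 5 to 6 weeks of age, and the mice were randomized on day 7. The 4 irradiated tumors received 5 daily fractions of 2 Gy with the rest of the body shielded by lead, the 3 control tumors were left untreated, and both groups were harvested on day 21. The labels call the tumors biological replicates, and each library held the cells of 1 tumor.

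Glycolysis splits glucose into pyruvate, and lactate dehydrogenase turns pyruvate into lactate when respiration is limited or bypassed. Cells sense oxygen through the prolyl hydroxylases Egln1 and Egln3, which mark the transcription factor subunits Hif1a and Epas1 for destruction while oxygen is plentiful. When oxygen falls, these subunits persist, pair with Arnt and raise the transcription of glucose transporters, glycolytic enzymes, lactate exporters and many other genes through short hypoxia response elements with the core RCGTG. Solid tumors often hold poorly perfused regions, and macrophages, lymphocytes and endothelial cells use parts of the same program.

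The core motif was looked for in the 250 bases before the start of each gene, in RefSeq sequences on GRCm38.p6, as ACGTG or GCGTG on both strands. Of the members, 32 of 35 matched the promoter set, with 47 promoters between them; Bhlhe40, Ndrg1 and Epas1 did not match. At least 1 core lay in 36 of the 47 member promoters (76.6%), against 38.6% of all 32851 promoters. The member promoters also held more CG dinucleotides, 16 on average against 9.86, whose part in the difference was not tested. The promoters of Adm, P4ha2, Slc16a3, Pgk1 and Slc16a1 are shown because the results turn on these members, 4 of which rose with the program between tumor cells while Slc16a1 did not pass. They cover chr7:110627407-110627656, chr11:54100674-54100923, chr11:120948817-120949066, chrX:106186850-106187099 and chr3:104638414-104638663, each on the plus strand, and they lie upstream of the RefSeq start, where 14 bases of the Slc16a3 sequence fall in GENCODE exons. Capitals mark the 5-base cores, also where they were found on the other strand as CACGT or CACGC.
Adm: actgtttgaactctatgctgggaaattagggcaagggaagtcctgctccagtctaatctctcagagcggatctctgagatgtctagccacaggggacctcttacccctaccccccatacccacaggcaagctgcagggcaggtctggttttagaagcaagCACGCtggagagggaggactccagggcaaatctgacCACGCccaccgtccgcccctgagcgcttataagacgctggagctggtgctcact
P4ha2: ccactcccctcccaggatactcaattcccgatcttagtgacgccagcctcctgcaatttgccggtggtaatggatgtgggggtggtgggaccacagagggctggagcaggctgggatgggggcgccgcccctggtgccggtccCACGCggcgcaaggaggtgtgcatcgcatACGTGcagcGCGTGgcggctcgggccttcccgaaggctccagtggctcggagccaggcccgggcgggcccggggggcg
Slc16a3: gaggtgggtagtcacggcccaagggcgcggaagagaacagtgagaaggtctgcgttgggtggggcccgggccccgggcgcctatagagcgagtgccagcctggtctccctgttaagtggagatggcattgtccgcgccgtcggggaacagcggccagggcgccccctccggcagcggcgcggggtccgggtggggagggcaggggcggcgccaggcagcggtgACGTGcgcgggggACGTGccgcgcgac
Pgk1: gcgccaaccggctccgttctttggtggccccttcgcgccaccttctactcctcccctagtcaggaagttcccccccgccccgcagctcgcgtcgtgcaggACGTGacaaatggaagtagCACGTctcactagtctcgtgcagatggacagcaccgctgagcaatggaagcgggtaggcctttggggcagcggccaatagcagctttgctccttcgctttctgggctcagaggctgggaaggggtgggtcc
Slc16a1: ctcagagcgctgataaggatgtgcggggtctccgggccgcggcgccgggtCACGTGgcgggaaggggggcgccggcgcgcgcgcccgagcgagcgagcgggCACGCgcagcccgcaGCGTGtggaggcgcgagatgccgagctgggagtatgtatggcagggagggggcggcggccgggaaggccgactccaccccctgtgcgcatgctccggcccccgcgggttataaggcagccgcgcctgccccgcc
The first base of a core lay 90 and 54 bases before the start in Adm, and 107, 78 and 69 bases before it in P4ha2. In Slc16a3 the cores began 27 and 14 bases before the start, and in Pgk1 150 and 131 bases before it. Slc16a1 held 4 matches, of which the pair at 200 and 199 bases before the start is 1 palindrome read on both strands. A match is a description of the letters and does not show binding.

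After filtering, 34301 of 39537 cells were retained, and the libraries held 53496570 to 153044123 unique molecular identifiers (UMIs). A UMI counts 1 captured molecule at its 3′ end. Cells were gated by markers that are not members: 15491 tumor cells without Xist, 11948 macrophages, 1421 T/NK cells and 463 endothelial cells, or 85.5% of the retained cells. Each marker list summed to 5955 to 9280 CPM (UMIs of a gene scaled by the summed UMIs of its tumor and gate, the unit of levels throughout) in its own gate. Xist, the RNA of the inactive X in the female hosts, was found in 90.0%, 89.8% and 88.3% of macrophage, T/NK and endothelial cells. The endothelial gate also carried 182 to 718 CPM of the tumor list and had as few as 21 cells in a tumor, so its values rest on few cells. The libraries were split into 2 sets by cell number, depth, mitochondrial share and stress genes, and these are called technical sets below. Control 2, control 3 and irradiated 1 make up set 1. Set 2 consists of control 1 plus irradiated 2, 3 and 4. The labels name no batch, and whether the sets differ for technical or biological reasons was not tested. The split used was the best of 63, with 0.572 of the spread left within sets against 0.625 for the next, a small lead. The sets overlapped in genes per cell (medians of 2368 to 3204 and 3141 to 4586) and mitochondrial share (medians of 3.6% to 4.82% and 3.13% to 4.46%). They also overlapped in stress genes (6192 to 10108 and 4744 to 9898 CPM). A sum of UMIs per tumor and gate does not tell fewer cells of a state from less RNA per cell.

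Members differed between the cell types in both directions, with Slc16a3 lowest in tumor cells, Epas1 highest in endothelial cells and P4ha2 highest in tumor cells. The members summed to 5493 CPM ± 684 (SD, n = 7) in tumor cells, 4687 ± 1093 in macrophages, 5545 ± 1128 in T/NK cells and 5204 ± 830 in endothelial cells, and these ranges overlapped. Between tumor cells and macrophages, 13 members were higher and 12 lower in tumor cells (edgeR quasi-likelihood test with tumor as a block, Benjamini-Hochberg adjusted p under 0.05), where 44.9% and 39.9% of the 16977 genes tested were higher and lower. Against T/NK cells 18 were higher and 9 lower in tumor cells (44.2% and 27.9% of all genes), and against endothelial cells 16 were higher and 10 lower (33.8% and 23.7%). Macrophages had 15 members higher and 12 lower than T/NK cells (38.6% and 30.2%), and 17 higher and 10 lower than endothelial cells (35.1% and 26.9%). T/NK cells had 14 higher and 7 lower than endothelial cells (33.3% and 33.1%) among the 32 members tested, without Pfkm, Car9 and Vldlr. The fitted log2 fold changes (log2FC) are relative to TMM scaling. Plain CPM moves them by 0.46 between tumor cells and macrophages and by -0.09, -0.14, -0.36, -0.49 and -0.14 in the other pairs, in the order above. Among the called members, the sign of Pfkl and Gapdh turned under plain CPM between tumor cells and macrophages. That of Gpi1 and Aldoa turned between macrophages and T/NK cells, and that of Higd1a between macrophages and endothelial cells. No direction is given for these called members in those pairs. Members without a call turned too, among them Tpi1, Pgam1 and Ldha between tumor cells and macrophages. The split of the calls moved with the scaling by over 10 percentage points in 3 pairs. Under plain CPM, 20 members were higher and 6 lower in tumor cells than in macrophages, where the higher genes made up 65.9% of all calls in place of 52.9%. Macrophages then had 10 members higher and 15 lower than T/NK cells (41.3% of all calls higher in place of 56.1%) and 10 higher and 15 lower than endothelial cells (34.9% in place of 56.6%), so which gate holds more of the higher members depends on the scaling in these pairs.

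**Figure D1:**
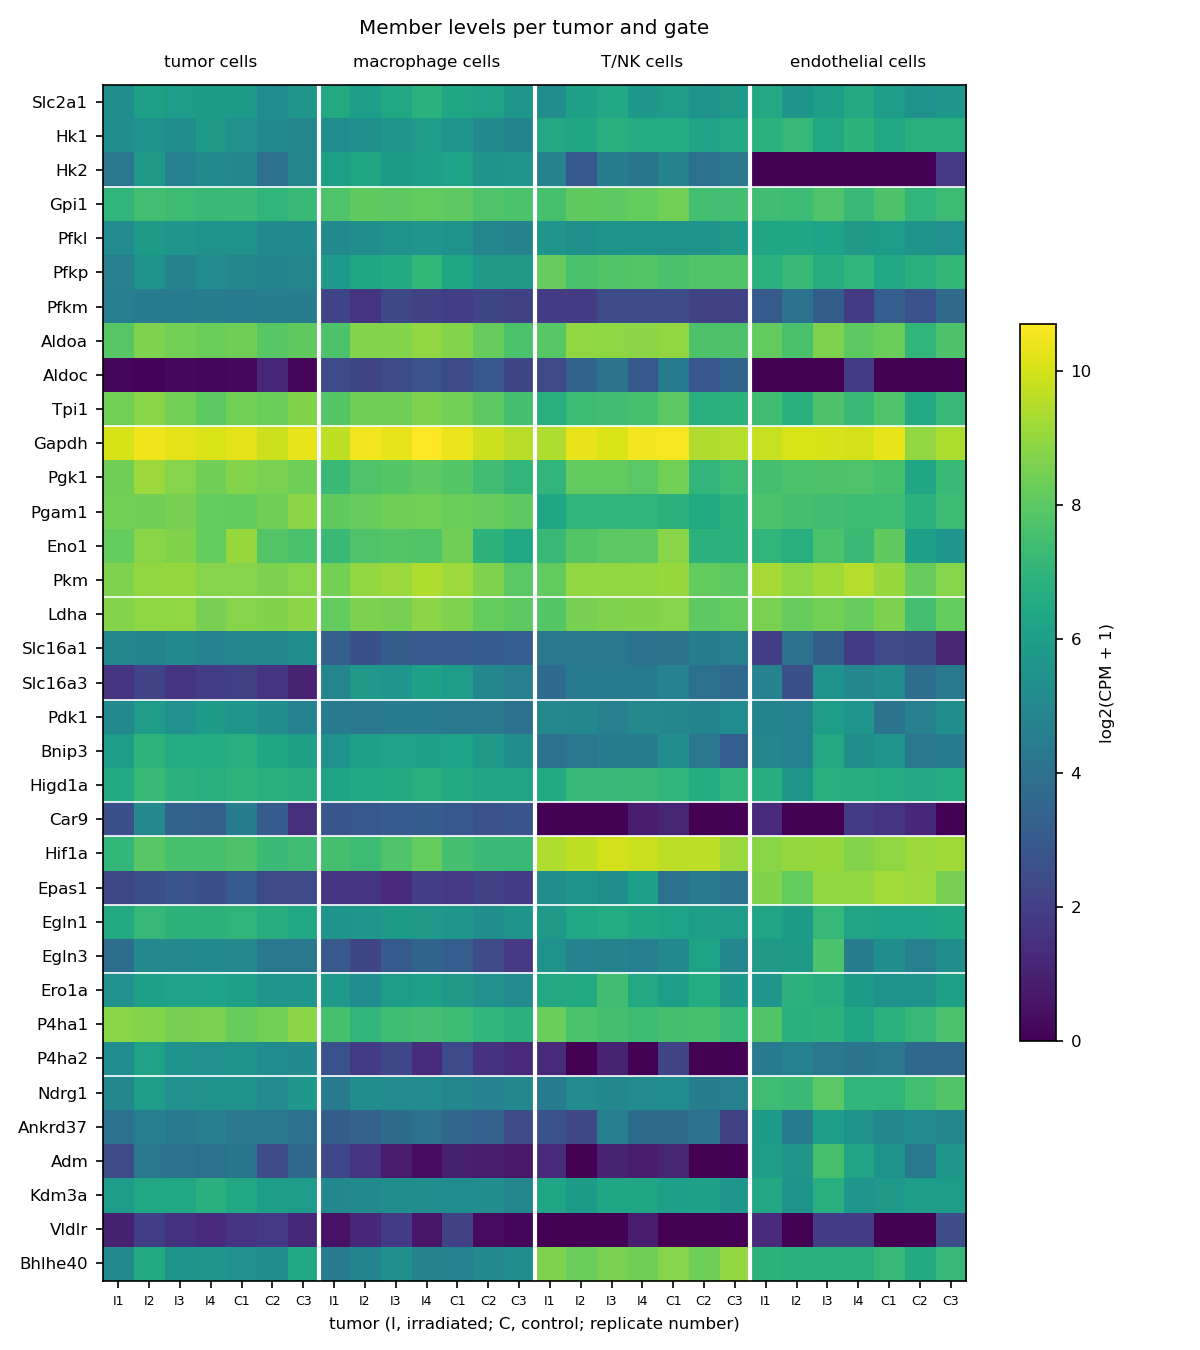
Level of the 35 members, as log2(CPM + 1), in each tumor (columns, irradiated 1 to 4 and control 1 to 3) within the tumor, macrophage, T/NK and endothelial gates. Rows are ordered by role, and Epas1 stands out in the endothelial columns (461 CPM on average) and Slc16a3 is dark in the tumor columns (2.40 CPM).

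Transcripts of the glucose transporter and of the hexokinases differed between the gates. Slc2a1, the glucose transporter at the cell surface, averaged 77.5 CPM ± 20.1 (SD, n = 7) in macrophages. It averaged 51.8 ± 10.6 in tumor cells, 56.7 ± 15.5 in T/NK cells and 62.7 ± 17.9 in endothelial cells. With TMM scaling macrophages were higher in 3 of 3 pairs (log2FC of tumor cells against macrophages -1.03, of macrophages against T/NK cells 0.81 and against endothelial cells 0.78, largest adjusted p = 5.52e-04, edgeR). With plain CPM these log2FC were -0.57, 0.45 and 0.29. The ranges over tumors overlapped (49.6 to 112 CPM in macrophages, 36.5 to 87.4 CPM in the other gates), and the order was not the same in every tumor. Hk2, the inducible hexokinase, averaged 62.2 CPM ± 11.5 in macrophages, 29.2 ± 13.1 in tumor cells and 18.8 ± 7.12 in T/NK cells. In endothelial cells it was found with 2 UMIs over the 7 tumors. Macrophages thus exceeded endothelial cells by a ratio of 115, with a 95% interval of 31.7 to 947 that covers counting error only. Tumor cells lay below macrophages in Hk2 (log2FC -1.64 ± 0.16 (SE), adjusted p = 1.82e-06, edgeR, 7 of 7 tumors), and the difference between tumor and T/NK cells did not pass (log2FC 0.64, adjusted p = 0.0772, edgeR). Of the UMIs of Hk1 and Hk2 together, Hk2 took 41.0% ± 8.79 (SD, n = 7) in tumor cells, 60.0% ± 5.46 in macrophages, 17.1% ± 5.08 in T/NK cells and 0.314% ± 0.831 in endothelial cells. The 6 pairs of gates each differed in 7 of 7 tumors (exact sign-flip permutation test, p = 0.0156, the smallest that 7 tumors allow, adjusted p = 0.0201 over 54 comparisons).

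The phosphofructokinase genes, which encode the committing step of glycolysis, parted tumor cells from the host. Pfkp, the platelet-type subunit, averaged 226 CPM ± 33.9 in T/NK cells, 118 ± 23.9 in endothelial cells, 78.6 ± 29.5 in macrophages and 30.6 ± 6.40 in tumor cells. All pairs but macrophages against endothelial cells (adjusted p = 0.397) passed the edgeR test, and T/NK cells exceeded tumor cells in 7 of 7 tumors (log2FC of tumor against T/NK -2.81 ± 0.13, adjusted p = 4.20e-18). Pfkm, the muscle-type subunit, ranged over the 7 tumors from 19.7 to 23.0 CPM in tumor cells, with a median of 21.7 CPM. In macrophages it ranged from 2.19 to 3.83 CPM, so the gates did not overlap (log2FC 2.25 ± 0.11, adjusted p = 2.38e-09, edgeR). Pfkm made up 23.2% ± 3.84 (SD, n = 7) of the phosphofructokinase UMIs in tumor cells and 1.36% to 4.40% on average in the host gates.

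Tumor cells and macrophages carried more Tpi1 and Pgam1 than T/NK and endothelial cells. Tpi1, which interconverts the triose phosphates, averaged 354 CPM in tumor cells and 299 in macrophages, against 158 in T/NK and 155 in endothelial cells. Between tumor cells and macrophages its log2FC was -0.19 with TMM scaling (adjusted p = 0.363, edgeR) and 0.27 with plain CPM. Pgam1, the phosphoglycerate mutase, averaged 344 and 303 CPM against 113 and 165 CPM in the same order. Between tumor cells and macrophages the log2FC of Pgam1 was -0.29 with TMM scaling (adjusted p = 0.0729, edgeR) and 0.17 with plain CPM. In Pgam1, T/NK cells lay below endothelial cells (log2FC -0.41 ± 0.14, adjusted p = 0.0111, edgeR). Macrophages exceeded T/NK cells in Pgam1 by 1.78 ± 0.09 and endothelial cells by 1.37 ± 0.13 on the log2 scale (adjusted p = 3.98e-16 and 9.82e-11, edgeR). In Tpi1 they exceeded endothelial cells by 1.41 ± 0.15 (adjusted p = 3.45e-08, edgeR). Pgk1, the first ATP-forming enzyme of the pathway, averaged 395 CPM ± 80.0 in tumor cells, higher than in each host gate (log2FC 0.54 to 1.32, largest adjusted p = 0.0035, edgeR). Aldoc, the brain-type aldolase, averaged 10.5 CPM ± 5.75 in T/NK cells and 0.307 ± 0.465 in tumor cells (log2FC of tumor against T/NK -5.55 ± 0.53, adjusted p = 3.34e-09, edgeR). In tumor cells it stood at 1.36 CPM in control 2 and at 0.0663 to 0.172 CPM in the other 6 tumors. Aldoc took 0.115% to 2.82% of the UMIs of both aldolases on average in the 4 gates, the rest being Aldoa, the broadly used form.

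Transcripts of the lactate transporters differed between the gates. Slc16a3, the exporter typical of glycolytic cells, stood in macrophages at 28.3, 52.2, 48.1 and 68.5 CPM in irradiated tumors and 59.9, 30.5 and 24.1 CPM in control tumors. In tumor cells of the same tumors it stood at 2.03, 3.54, 2.18 and 2.87 CPM and at 3.03, 2.04 and 1.12 CPM. Every tumor was lower in tumor cells, and the gates did not overlap (log2FC -4.65 ± 0.13 (SE), adjusted p = 3.38e-11, edgeR). A panel of 4 abundant macrophage genes summed to 54.6 CPM in tumor cells and 18051 CPM in macrophages at the median. Slc16a1, the transporter that moves lactate in either direction, was highest in tumor cells. It averaged 30.6 CPM ± 4.33 there, 18.9 ± 3.42 in T/NK cells, 7.33 ± 1.16 in macrophages and 5.43 ± 4.76 in endothelial cells. Each of the 6 pairs passed the edgeR test. Slc16a3 took 7.52% ± 2.94 (SD, n = 7) of the UMIs of both transporters in tumor cells, 84.1% ± 6.95 in macrophages, 48.2% ± 10.8 in T/NK cells and 79.0% ± 24.5 in endothelial cells. The endothelial share rests on 4 to 20 UMIs per tumor and did not pass against macrophages (exact sign-flip permutation test, p = 0.828). Ldha, which makes the lactate, averaged 438 CPM ± 43.3 in tumor cells and 349 ± 73.5 in macrophages. Its log2FC was -0.11 with TMM scaling, which did not pass (adjusted p = 0.488, edgeR), and 0.35 with plain CPM.

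**Figure D2:**
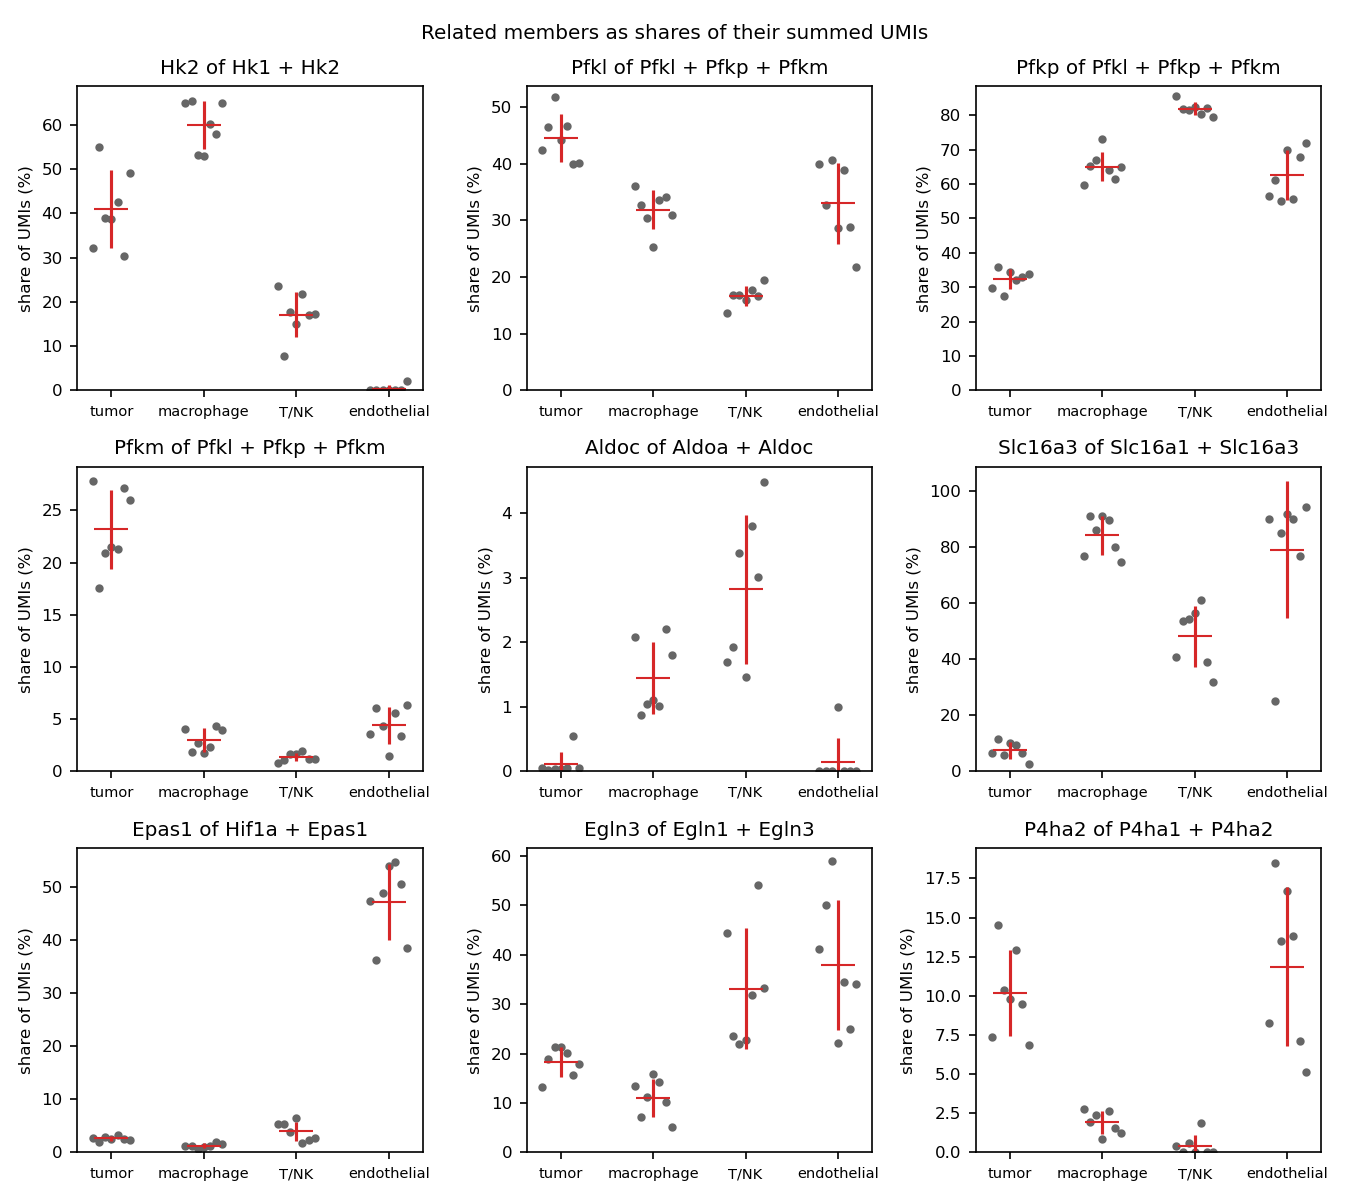
Share of UMIs (%) that 1 gene takes within its isoform or regulator group, for 9 genes in 4 gates. Points are the 7 tumors and red bars the mean ± SD, and the Slc16a3 panel shows 7.52% in tumor cells against 84.1% in macrophages.

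The oxygen-sensing factors followed cell type as well. Epas1, the HIF subunit best known from endothelium, stood at 408, 293, 507 and 500 CPM in endothelial cells of irradiated tumors and at 593, 563 and 362 CPM in control tumors. It averaged 34.1 CPM ± 19 in T/NK cells, 5.00 ± 1.12 in tumor cells and 2.42 ± 0.547 in macrophages, and the 6 pairs passed the edgeR test (largest adjusted p = 0.0107). Endothelial cells exceeded tumor cells by 6.39 on the log2 scale, since the log2FC of tumor against endothelial was -6.39 ± 0.16 (adjusted p = 7.44e-33, edgeR). Hif1a, the widely expressed subunit, averaged 797 CPM ± 148 in T/NK and 507 ± 53.3 in endothelial cells, above 192 ± 46.8 in macrophages and 186 ± 35.6 in tumor cells. Between the last 2 its log2FC was -0.50 with TMM scaling (adjusted p = 0.00541, edgeR) and -0.04 with plain CPM. Epas1 took 47.2% ± 7.20 (SD, n = 7) of the UMIs of both subunits in endothelial cells and 1.30% to 3.97% on average elsewhere. Of the hydroxylases, Egln1 was higher in tumor cells than in each host gate (112 CPM ± 20.2, log2FC 0.56 to 0.74, largest adjusted p = 0.00141, edgeR). Egln3, itself a strong target of the pathway, averaged 62.0 CPM ± 62.5 in endothelial cells (201 CPM in irradiated 3 and 21.6 to 55.5 CPM in the others), 36.6 ± 17.6 in T/NK cells, 25.7 ± 8.40 in tumor cells and 6.14 ± 2.69 in macrophages. Macrophages lay below the other gates in 3 of 3 pairs (largest adjusted p = 0.00112, edgeR), and the other pairs did not pass.

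Among the effectors, transcripts of both collagen hydroxylases were higher in tumor cells than in each host gate, though not restricted to them. P4ha2, which hydroxylates collagen prolines, stood at 35.9, 71.2, 42.5 and 41.3 CPM in tumor cells of irradiated tumors and at 44.2, 36.2 and 33.5 CPM of control tumors, against 1.5 to 5.52 CPM in macrophages and 0 to 3.52 CPM in T/NK cells. These gates did not overlap (log2FC 3.40 ± 0.25 against macrophages, adjusted p = 2.52e-07, edgeR; 5.72 ± 0.36 against T/NK cells, adjusted p = 4.60e-15). Endothelial cells lay between, at 17.2 CPM ± 5.12. P4ha1, its paralog, averaged 387 CPM ± 57.1 in tumor cells and was higher there than in each host gate (log2FC 0.88 to 1.60, largest adjusted p = 1.17e-04, edgeR). Adm, which encodes the vasodilator peptide adrenomedullin, averaged 70.5 CPM ± 55.6 in endothelial cells, 12.1 ± 5.56 in tumor cells, 1.36 ± 1.28 in macrophages and 0.633 ± 0.62 in T/NK cells. The last 2 gates did not differ in the test (adjusted p = 0.168, edgeR), and endothelial cells exceeded tumor cells in 7 of 7 tumors (log2FC of tumor against endothelial -2.39 ± 0.36, adjusted p = 4.39e-04, edgeR). Car9, a carbonic anhydrase that acidifies the cell surroundings, ranged in tumor cells from 1.81 to 32.0 CPM between tumors, averaged 6.67 CPM in macrophages and gave 2 UMIs in T/NK cells over the 7 tumors, where the ratio of tumor to T/NK cells was 32.8 with a counting interval of 9.06 to 271.

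The remaining targets were highest in different gates. Bhlhe40, a transcriptional repressor that also acts in T cell effector function, averaged 382 CPM ± 68.6 in T/NK cells and 30.1 ± 7.29 in macrophages (log2FC of macrophage against T/NK -3.32 ± 0.13, adjusted p = 4.11e-14, edgeR). Ndrg1, a stress-response gene, averaged 177 CPM ± 47.0 in endothelial cells and 29.2 to 44.0 CPM in the other gates, and Ankrd37, an ankyrin-repeat target of HIF, averaged 39.4 CPM ± 14.7 there and 9.80 to 18.9 CPM elsewhere. Each passed the edgeR test in endothelial cells against the 3 other gates. Bnip3, which drives removal of mitochondria, averaged 90.6 CPM ± 22.7 in tumor cells, 59.1 ± 14.3 in macrophages, 37.7 ± 24 in endothelial and 20.1 ± 9 in T/NK cells, with no call between the first 2 (adjusted p = 0.117, edgeR). Pdk1, a kinase that inhibits pyruvate dehydrogenase and so keeps pyruvate from becoming acetyl-CoA, averaged 43.2 CPM ± 12.5 in tumor cells. It was higher there than in macrophages (18.8 ± 2.18) and T/NK cells (30.5 ± 3.79), with adjusted p of 1.08e-04 and 0.00217 (edgeR). Tumor against endothelial cells did not pass for Pdk1 (adjusted p = 0.149, edgeR). Ero1a, an oxidase of the secretory pathway, was higher in T/NK cells (92.0 CPM ± 38.9) than in the other gates (48.6 to 67.8 CPM, largest adjusted p = 0.00572, edgeR). Kdm3a, a histone demethylase, averaged 78.1 CPM ± 18.4 in tumor cells and 34.7 ± 3.54 in macrophages (adjusted p = 1.10e-05, edgeR). Macrophages were also below T/NK and endothelial cells in Kdm3a (adjusted p = 3.85e-05 and 0.0134, edgeR). Tumor cells passed narrowly against T/NK cells (log2FC 0.29, adjusted p = 0.0465, edgeR) and did not pass against endothelial cells (adjusted p = 0.119). Higd1a, a mitochondrial protein, averaged 84.8 to 127 CPM in the 4 gates, and Vldlr, a lipoprotein receptor, was at or below 1.88 CPM on average.

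Whether irradiation changed the program was asked within each gate. No gene passed an adjusted p of 0.05 between irradiated and control tumors in any of the 4 gates (edgeR quasi-likelihood test, Benjamini-Hochberg over 17317, 12875, 7547 and 7045 genes), so the background was 0% and no member passed. At an unadjusted p under 0.05 there were 225 genes (1.30%) in tumor cells, 661 (5.13%) in macrophages, 369 (4.89%) in T/NK cells and 266 (3.78%) in endothelial cells, among them 0 of 34, 0 of 35, 1 of 28 and 3 of 28 members tested. The median log2FC of the members was 0.09, 0.23, 0.06 and 0.29 in the 4 gates, where all genes had medians of -0.02, -0.01, 0.00 and 0.00. With technical set as a term the members' medians were -0.03, 0.05, -0.15 and 0.22. In tumor cells the members with the smallest p were Hk1 (log2FC 0.26 ± 0.14, SE), Pfkl (0.26 ± 0.16) and Slc16a1 (-0.25 ± 0.18), each with an adjusted p of 1. In macrophages they were P4ha1 (0.27 ± 0.15), Hif1a (0.32 ± 0.19) and Pfkp (0.49 ± 0.30), each with an adjusted p of 0.826 (edgeR). The difference of the irradiation effect between tumor cells and macrophages passed for 0 of 16977 genes, with 735 (4.33%) at an unadjusted p under 0.05 (edgeR interaction term). Of the 45 other pathway genes listed for comparison, 42, 38, 26 and 22 were tested in the 4 gates and 0 passed.

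The groups did not overlap for 0 of 34, 0 of 35, 1 of 28 and 0 of 28 members tested in tumor, macrophage, T/NK and endothelial cells. The 1 member was Epas1, in T/NK cells. Of all genes tested in these gates, 1.33%, 3.22%, 4.21% and 2.46% were higher in irradiated tumors without overlap, and 0.889%, 2.12%, 1.93% and 2.07% lower. The members thus did not part more often than all genes. Epas1 stood at 38.9, 46.2, 39.9 and 65.3 CPM in irradiated tumors and at 14.1, 19.2 and 14.8 CPM in control tumors. Hif1a and Epas1 together gave 344 to 1312 UMIs per tumor in this gate. Epas1 took 3.83% to 6.55% of them in irradiated and 1.73% to 2.62% in control tumors, so its control values rest on few UMIs. The log2FC was 1.55 ± 0.29 (SE), with an unadjusted p of 6.46e-05 and an adjusted p of 0.487 (edgeR). Within technical sets 1 and 2 the log2 ratio of the group means was 1.15 and 1.77, with too few tumors per set for a test. Over 16 alternatives the log2FC ran from 1.33 to 1.96 and the adjusted p from 4.48e-04 to 0.996, and it passed where every gene with at least 1 UMI was tested. Beside it, the endothelial marker list summed to 84.8 to 132 CPM in T/NK cells of irradiated tumors and 107 to 128 CPM in controls, the NK receptor genes Ncr1 and Klrb1c to 53.2 to 99.4 and 38.4 to 122 CPM, and the Cd3 genes to 1456 to 1848 and 1339 to 1507 CPM. Each overlapped between the groups. The parts of T and NK cells were not told apart. Egln3 (log2FC -0.68 ± 0.33) and Ero1a (0.60 ± 0.29) followed by p in this gate, each with an adjusted p of 0.98 (edgeR).

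In endothelial cells Adm stood at 63.1, 50.5, 190 and 75.7 CPM in irradiated tumors and at 42.9, 18.9 and 52.1 CPM in controls, so the groups overlapped. Its log2FC was 1.32 ± 0.51 (SE) with an unadjusted p of 0.0277 and an adjusted p of 1 (edgeR), and over 16 alternatives it ran from 0.74 to 1.67 with an adjusted p from 0.00785, where every gene with at least 1 UMI was tested, to 1. Pkm, the pyruvate kinase gene, and Pfkl, the liver-type phosphofructokinase, followed with log2FC of 0.50 ± 0.22 and 0.58 ± 0.26. The tumor with 190 CPM, irradiated 3, gave 36 endothelial cells.

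**Figure D3:**
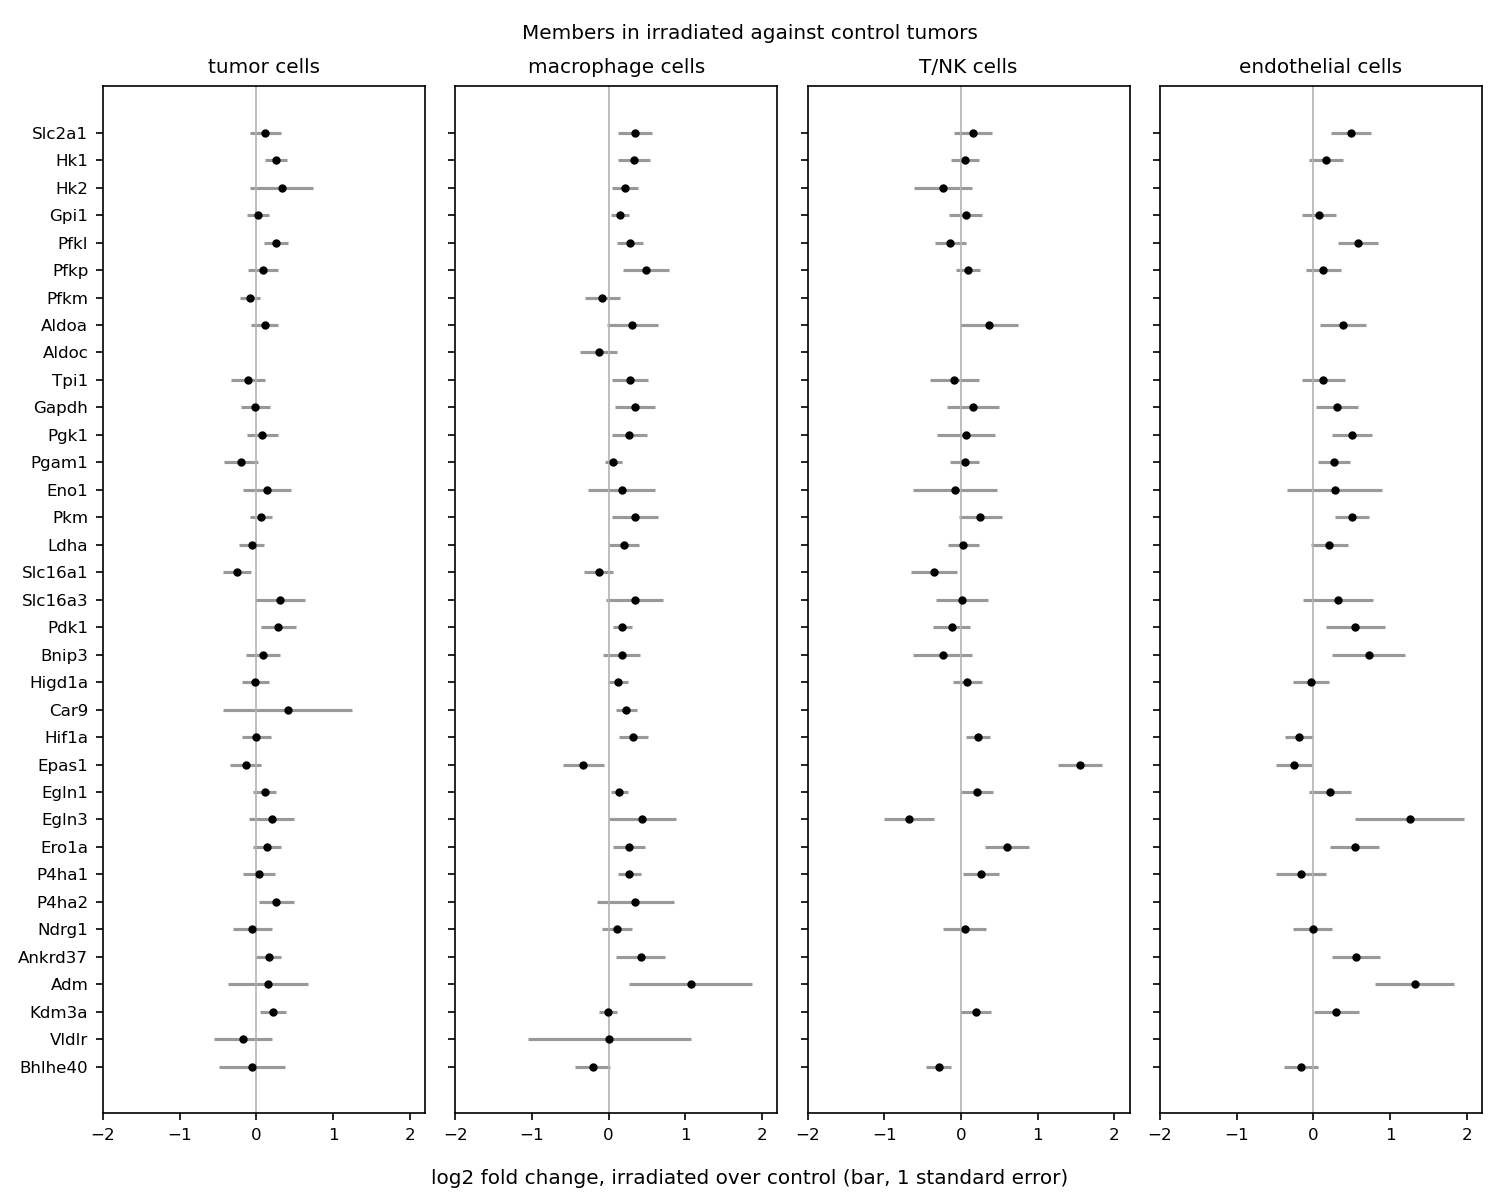
Log2 fold change of irradiated against control tumors (points) with 1 SE (bars) for each member tested, in 4 panels for the 4 gates. No member passed an adjusted p of 0.05, and Epas1 in T/NK cells (1.55) is the point farthest from 0.

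More members parted without overlap by technical set than by irradiation. In macrophages, Gapdh, a central glycolytic enzyme, stood at 826, 944 and 763 CPM in the 3 tumors of set 1 and at 1461, 1271, 1675 and 1340 CPM in the 4 tumors of set 2. In tumor cells 19 members were higher in set 2 without overlap and 1 was higher in set 1, of 34 tested, where 18.8% and 4.84% of all genes did so. The counts were 19 and 0 of 35 in macrophages (15.8% and 9.57% of all genes), 14 and 1 of 28 in T/NK cells (7.23% and 4.39%) and 2 and 1 of 28 in endothelial cells (4.05% and 3.28%). The median log2 ratio of set 2 to set 1 over the members was 0.41, 0.36, 0.45 and 0.25, against 0.11, 0.03, 0.05 and 0.00 over all genes. Of the glycolytic enzymes with Hk1, Hk2 and Ldha, 12 of 15 were higher in set 2 without overlap in macrophages, 8 of 13 in T/NK cells, 5 of 14 in tumor cells, where 1 was higher in set 1, and 2 of 12 in endothelial cells. Aldoa was 1.36, 1.87, 2.19 and 1.43 times as high in set 2 in tumor, macrophage, T/NK and endothelial cells, and Eno1, the enolase, 1.78, 2.13, 2.36 and 2.26 times. Car9 in tumor cells was 3.68 times as high. Since set 2 holds 3 of the 4 irradiated tumors, the sets and the groups are partly confounded, and the cause of the sets was not tested.

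**Figure D4:**
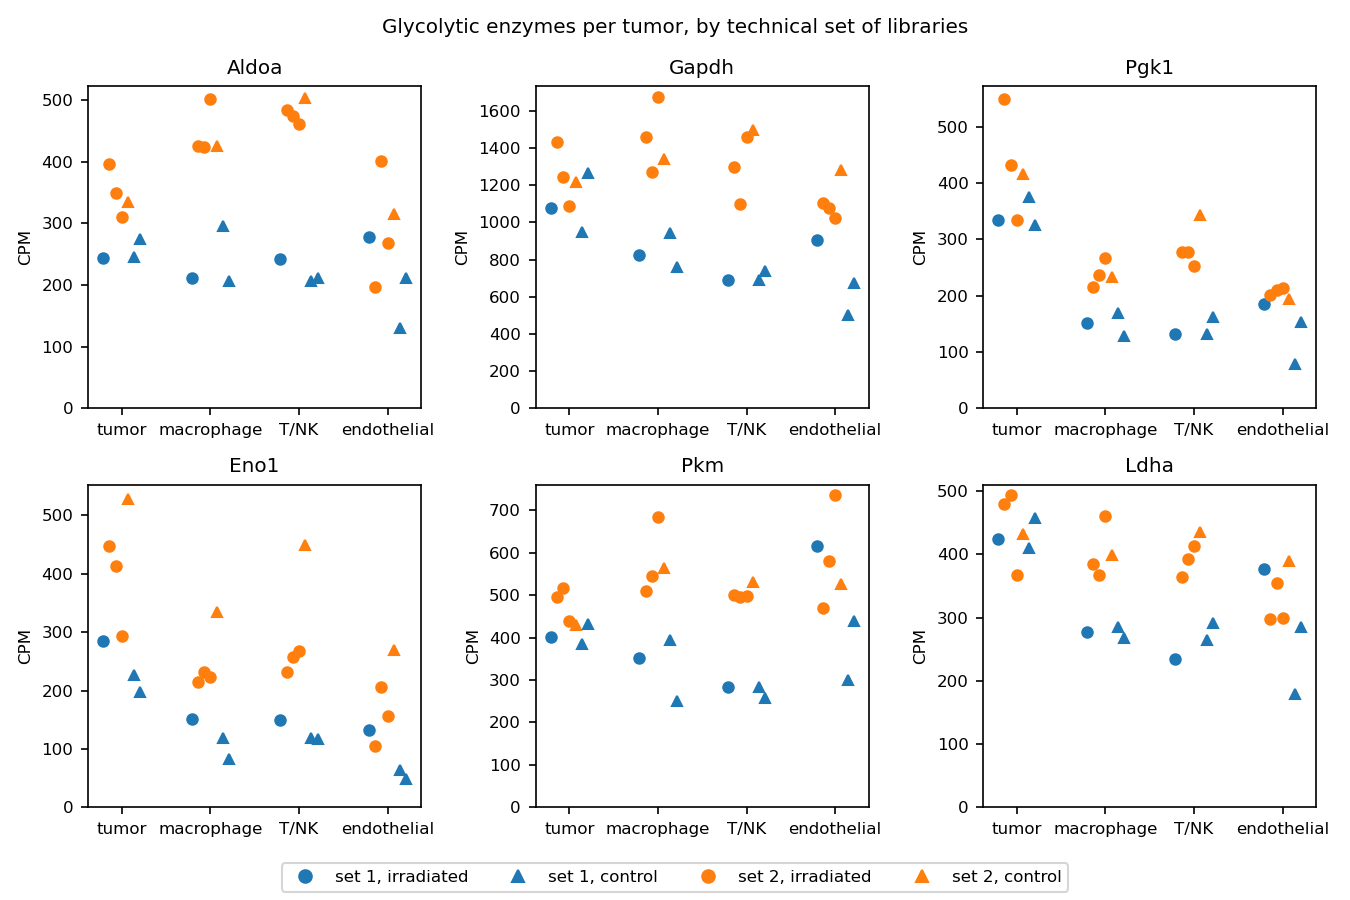
CPM of Aldoa, Gapdh, Pgk1, Eno1, Pkm and Ldha in each tumor and gate, with colors for the technical set and marker shapes for the group. Gapdh in macrophages lies at 763 to 944 CPM in set 1 and 1271 to 1675 CPM in set 2.

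Within single tumors, cells differed along the program. Cells of the tumor and macrophage gates were thinned to 4000 UMIs each and ranked in their tumor by 7 index members, Ndrg1, Ankrd37, Egln3, Car9, Bnip3, Ero1a and Pdk1, and the top 20% were compared with the rest. The index members get no test, since they made the ranking. In the tumor gate 2843 high and 11362 other cells were compared, with 1286 cells too shallow and 10.6% of cells tied at the border, which were split at random. In the macrophage gate the counts were 1698 and 6778, with 3472 too shallow and 26.9% tied. No index UMI was found in 49.3% of the thinned tumor cells and 58.2% of the macrophages. The high cells are thus the top range of a sparse score, and whether they form a distinct type was not tested.

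In tumor cells 24 of the 27 members outside the index that were tested rose with it and 0 fell, where 3.78% of the 12001 genes were higher and 3.12% lower (edgeR quasi-likelihood test with tumor as a block). Their median log2FC was 0.93. Adm stood at 15.6, 66.0, 81.2 and 45.5 CPM in high cells of irradiated tumors and at 65.5, 13.0 and 33.9 CPM of controls, against 1.68 to 7.81 CPM in the other cells. Each tumor was higher in its high cells, and the cell groups did not overlap (log2FC 3.04 ± 0.15 (SE), adjusted p = 1.61e-15). P4ha2 averaged 99.6 CPM ± 43.9 (SD, n = 7) in high and 25.8 ± 7.15 in other cells (log2FC 1.89 ± 0.13, adjusted p = 3.33e-07, edgeR), and Slc2a1 106 ± 40.8 and 39.6 ± 7.69 (log2FC 1.31 ± 0.18, adjusted p = 0.00483). Slc16a3 (log2FC 1.68 ± 0.30) and Vldlr (2.59 ± 0.38) also passed at levels of 5.52 and 5.57 CPM in high cells. The enzymes from Gpi1 to Ldha rose by 0.72 to 1.26 on the log2 scale, Pgk1 among them with 580 CPM ± 188 against 237 ± 31.9, with the exception of Pfkm (0.28, adjusted p = 0.133, edgeR). Slc16a1 (0.30, adjusted p = 0.146) and Epas1 (-0.03, adjusted p = 0.974) did not pass either, and Aldoc was too low to be tested.

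In macrophages 20 of the 25 members outside the index that were tested rose with it and 0 fell, where 1.75% of the 10296 genes were higher and 0.447% lower. Their median log2FC was 0.58. Slc16a3 stood at 39.8, 99.7, 92.4 and 131 CPM in high cells of irradiated tumors and at 117, 58.8 and 35.4 CPM of controls, and at 25.1, 39.9, 39.5 and 54.9 CPM and 51.6, 24 and 18.3 CPM in the other cells. Every tumor was higher in its high cells, although the ranges over tumors overlapped (log2FC 1.17 ± 0.09 (SE), adjusted p = 1.23e-13, edgeR). Pgk1 (log2FC 1.03 ± 0.06), Tpi1 (0.90 ± 0.05) and Pgam1 (0.74 ± 0.05) followed, and Adm passed (log2FC 3.99 ± 0.63, adjusted p = 4.31e-05, edgeR) at 6.16 CPM ± 8.52 in high and 0.274 ± 0.227 in other cells, with 23.7 CPM in irradiated 1. Hk1 (0.20), Aldoc (0.99), Slc16a1 (0.26), Hif1a (0.15) and P4ha2 (1.26) did not pass, and Pfkm, Epas1 and Vldlr were not tested.

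For part of the members the split was wider in tumor cells than in macrophages. For the 20 members outside the index with at least 10 CPM in the other cells of both gates, the log2 ratio of high to other cells (pseudocount 1 CPM) was larger in the tumor gate for 14, larger in the macrophage gate for 0 and not past an adjusted p of 0.05 for 6 (exact sign-flip permutation test over 7 tumors, smallest p 0.0156, adjusted 0.0223). Hk2 had log2 ratios of 1.20 and 0.33 in the 2 gates, and Higd1a 1.28 and 0.44. Tpi1 (0.77 and 0.88), Pgk1 (1.24 and 1.00), Pgam1, Ldha, Hif1a and Bhlhe40 did not pass. The ranking itself was steeper in tumor cells, with a median over tumors of 4.26 index UMIs per high cell and 0.512 per other cell, against 2.47 and 0.267 in macrophages, and its part in the difference was not tested. The floor of 10 CPM and the pseudocount were chosen after the values were seen. The floor left out Adm, P4ha2, Slc16a3 and Slc16a1, of which 0 passed the exact sign-flip permutation test with a pseudocount of 1 CPM (smallest unadjusted p = 0.0781). The difference between the gates moved with the pseudocount for Adm, from 1.07 with 1 CPM to 0.11 with 0.1 CPM, and for Slc16a3, from 0.23 to 0.68 (unadjusted p = 0.172 and 0.0312, exact permutation test). For Adm the fitted log2FC was 3.04 in tumor cells and 3.99 in macrophages, so no order of the gates is given for these members. With 0.1 CPM the count above the floor was again 14 of 20.

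**Figure D5:**
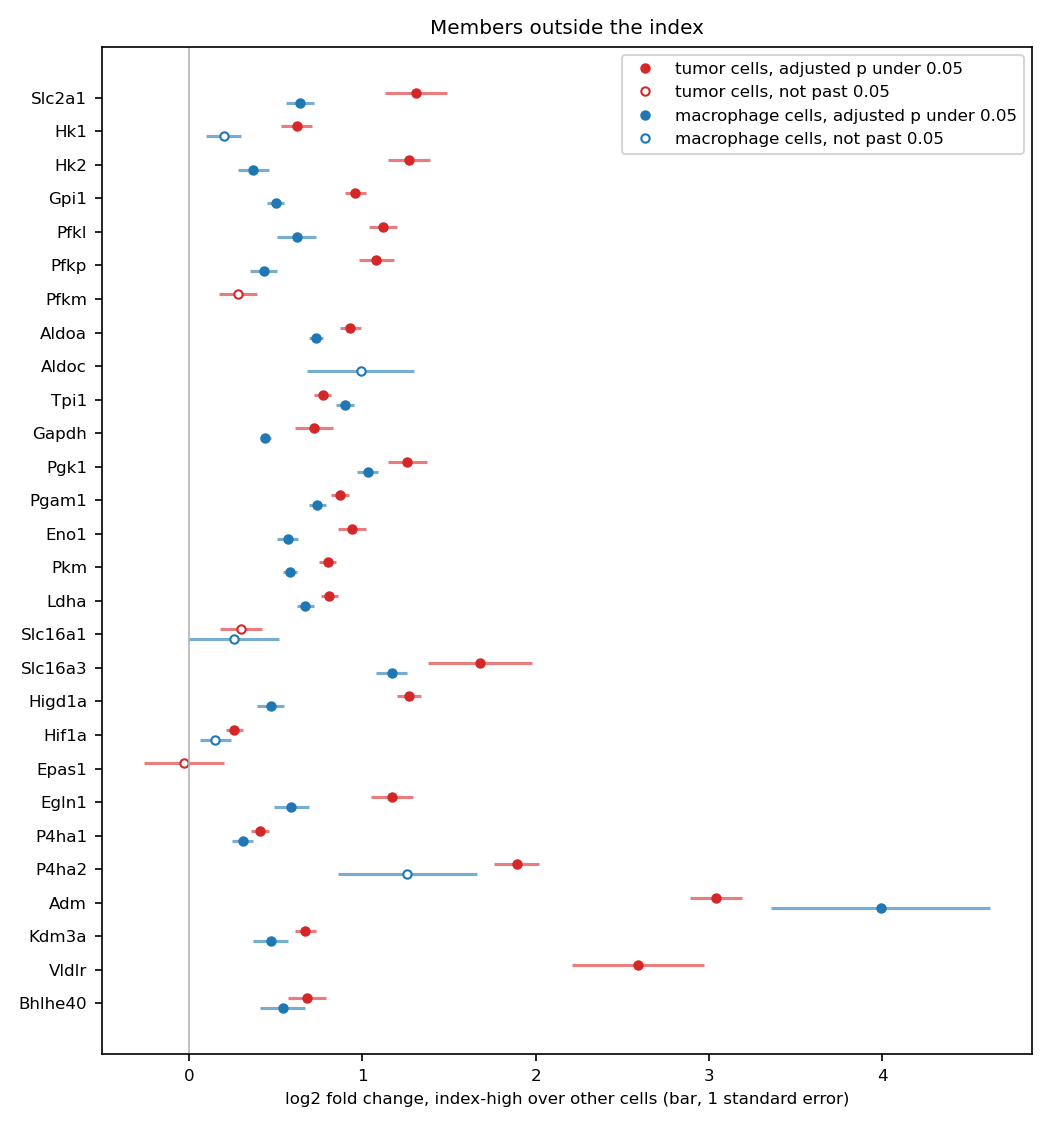
Log2 fold change of index-high against other cells, with 1 SE, for members outside the index in tumor cells (red) and macrophages (blue); open points did not pass an adjusted p of 0.05. Adm is highest in both gates (3.04 and 3.99), and Slc16a1 did not pass in either.

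Other pathway genes moved along in part. In tumor cells 20 of the 39 tested rose and 0 fell, with a median log2FC of 0.23, led by Ak4, a mitochondrial adenylate kinase (1.35 ± 0.11), Fam162a (1.35 ± 0.11), Pgm1, which links glycogen to glycolysis (1.27 ± 0.08), Vegfa, the angiogenic growth factor (1.24 ± 0.14), and Gys1, glycogen synthase (1.18 ± 0.12). In macrophages 9 of 36 rose and 0 fell, among them Ak4 (2.40 ± 0.52), Ddit4 (1.13 ± 0.19), Hilpda (0.97 ± 0.16), Vegfa (0.93 ± 0.06) and Mif (0.80 ± 0.06). Outside both lists, the genes that rose most in tumor cells were Prelid2 (1.99 ± 0.12), the metallothionein Mt1 (1.59 ± 0.26), Tmem45a (1.38 ± 0.09), Triobp (1.28 ± 0.13) and Itpk1 (1.22 ± 0.19), followed by Mthfd1l, Clybl, Cda, Sap30 and Nrn1 (0.91 to 1.08). The matrix genes Lama2 (-1.39 ± 0.17) and Eln (-1.01 ± 0.13) and the growth factor binding Igfbp5 (-1.34 ± 0.07) fell. In macrophages Il1r2, a decoy receptor for interleukin-1, led (1.12 ± 0.19), followed by Rgcc, Clec4e, Gpr141, Arg1, Tnip3, Ctnnd2, Pygl, Anxa2 and Scd2 (0.72 to 0.94). Beside the split in tumor cells, the mitochondrial share was lower in high cells of 7 of 7 tumors (medians 4.18% and 4.87%), the cycling genes were higher in 6 of 7 (553 and 514 CPM) and the macrophage panel was 61.6 and 62.7 CPM. In macrophages, dissociation stress genes were higher in high cells of 6 of 7 tumors (15189 and 14390 CPM), the macrophage panel was lower in 7 of 7 (15928 and 18503 CPM) and the collagen panel higher in 5 of 7 (146 and 119 CPM), and the part of these in the result was not tested. The share of thinned tumor cells with at least 3 index members was 3.77%, 4.89% and 5.29% in the tumors of set 1 and 14.4%, 8.14%, 10.9% and 11.1% in those of set 2.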

How the data were processed

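The 7 libraries were made with a 10x Genomics 3′ v3.1 kit from papain-dissociated tumors, with 10000 cells loaded each. The values that the authors deposited are counts of UMIs per gene and cell, written by Cell Ranger 8.0.0 per the file headers. The submitters' notes name mm10 and Seurat 4.4, and whether intronic reads were counted is not given in the sources used here. The members, lists, tests and named-gene rule were chosen with earlier results of these data known.

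Cells within 3 median absolute deviations of their library's medians of UMIs, genes, mitochondrial and ribosomal share were kept (34301 of 39537). A cell entered a gate with at least 3 of its markers and at most 1 for every 3 of those from any other list, tumor cells also with 0 Xist UMIs, and the 4978 cells in no gate were left out. Scrublet called 2.08% of the kept cells and at most 0.252% of a gate, and these were left in. Libraries shared 3 to 19 barcodes. Median depth was 22134, 6494, 3083 and 5751 UMIs per tumor, macrophage, T/NK and endothelial cell. Intervals cover counting error only.

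UMIs were summed per tumor and gate and tested with edgeR 4.0.16 (R 4.3.3) by the quasi-likelihood test (filterByExpr, TMM, robust, Benjamini-Hochberg, threshold 0.05), with tumor as a block between gates and cell groups. The test was checked on simulated data. Isoform shares were compared with a two-sided exact sign-flip permutation test over 7 tumors. Besides the isoform pairs, named genes are the 3 members of smallest p per irradiation test, the 3 members highest and lowest per pair of gates with at least 10 CPM in 1 of them, and, per cell split, the 5 members, 5 pathway genes and other genes of at least 20 CPM with the largest changes. Further members are named to account for all 35. The alternatives were DESeq2 1.42.0, other scalings, no low-count filter, all cells, stricter gates, an Xist rule for host cells, no Scrublet calls, technical set, blocks, other thinning and cuts, and leaving out each tumor. Coordinates come only from the promoter table. The 2 features named Aldoa were told apart by identifier, and the larger was used.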

Additional observations from a re-analysis of the deposited data

Results flagged for a closer look

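Within the 4 irradiated tumors, 16 of 115 sets of member and gate values with at least 10 CPM held a tumor apart from the other 3 by Dixon's rule. Chance alone would give 5.75 if the sets were independent. They come from the same 4 libraries and are not independent, so 16 cannot be weighed against 5.75. Irradiated 1, the only irradiated tumor of technical set 1, was the one apart in 10 of the 16. In T/NK cells it was at 242 CPM for Aldoa, 80.6 for Pgam1, 284 for Pkm, 12.5 for Slc16a3 and 89.0 for Higd1a, below the others, and at 43.1 CPM for Egln3, above them. In macrophages it was low in Bnip3 (42.9 CPM) and Ndrg1 (19.6 CPM), and in tumor cells in Egln3 (13.8 CPM) and Ero1a (42.1 CPM). Of the other tumors, irradiated 2 was high in Car9 of tumor cells (32.0 CPM) and low in Kdm3a of T/NK cells (55.7 CPM) and Higd1a of endothelial cells (50.5 CPM). Irradiated 3 was low in Pdk1 (24.4 CPM) and high in Ero1a (172 CPM) of T/NK cells, and irradiated 4 was low in Slc16a1 of T/NK cells (15.2 CPM).

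The difference between index-high and other cells was larger in tumor cells than in macrophages for 14 of the 20 members compared, by the exact sign-flip permutation test of the difference itself. A second Aldoa feature, which entered no comparison, held 207 UMIs in the 4 gates, against 159980 of the one used.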

How the results depend on the processing

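Of 305 alternative values of counts of calls, 296 stayed within 1.5 times the reported count, which does not track the direction of the calls. Of 982 alternative values of single named genes, 980 kept their direction and side of the threshold. Between irradiated and control tumors, where 0 genes passed, DESeq2 called 1 gene in tumor cells and 3 in macrophages. Testing every gene with at least 1 UMI gave 50 calls in T/NK cells, with Epas1 among them (log2FC 1.56), and 51 in endothelial cells, with Adm among them (1.29). Technical set as a term gave 1 call in T/NK cells. Tumors that share a replicate number in the labels had correlations from -0.55 to 0.16. With a single tumor per group and number, these cannot tell whether tumors were paired. With the numbers as a replicate block 2 genes passed in endothelial cells and 0 in the other gates, none of them a member. Without the tumor term, 13 members in place of 21 passed between T/NK and endothelial cells. In the tumor split, 468 genes passed with 2500 UMIs per cell and 1601 with 10000, the last chosen after seeing the data, in place of 828. Plain CPM in place of TMM, also chosen after seeing the data, kept each count of members within 1.5 times but turned the split of higher and lower members from 13 and 12 to 20 and 6 between tumor cells and macrophages. For macrophages the split went from 15 and 12 to 10 and 15 against T/NK cells. Against endothelial cells it went from 17 and 10 to 10 and 15. The causes of these differences were not tested. Leaving out each tumor gave 0 calls for irradiation in each gate, 22 to 26, 26 to 28, 25 to 28, 24 to 27, 24 to 29 and 17 to 22 members in the pairs of gates, and 24 to 25 and 19 to 21 members outside the index in the 2 splits. The endothelial values rest on 21 to 149 cells per tumor.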
